A study of Mus musculus with 6 samples.

Results

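Eomes and Tbx21 encode Eomesodermin and T-bet, the pair of T-box transcription factors that define natural killer (NK) cells. They were taken as the rows of the deposited expression table whose gene name is Eomes or Tbx21, which gave 2 of 55414 genes, both among the 15527 genes that passed the filter on low counts. The libraries came from liver NK cells of wild-type (WT) mice on day 3: 3 from control mice that received PBS (phosphate-buffered saline) and 3 from mice that received metformin, a diabetes drug, at 200 mg per kg for 3 days. Sex, age, the sort or gate used for the NK cells and whether each library is a separate mouse are not given in the sources used here, so the p-values reflect sample-to-sample spread alone, and that spread may be technical. The question was what metformin did to the level of each factor and to the balance between them.

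T-box factors share a DNA-binding domain, the T-box, that recognises a short element in the promoters and enhancers of their targets. In liver, conventional NK cells carry both Eomes and T-bet, whereas type 1 innate lymphoid cells (ILC1), their tissue-resident relatives, carry T-bet and lack Eomes. T-bet is induced by interleukin-12 and interferon signalling, the former through STAT4, and drives effector genes such as interferon gamma. Eomes is needed for the mature conventional NK cell, including its Ly49 receptors and the integrin CD49b.

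Eomes (ENSMUSG00000032446.15) lay on chromosome 9 from 118307280 to 118315200 on the plus strand, and Tbx21 (ENSMUSG00000001444.3) on chromosome 11 from 96988897 to 97006157 on the minus strand, as the deposited table gives them. These positions differ from those of RefSeq on GRCm38.p6, and the table names no build. The table lists 3 transcripts for Eomes, with a gene length of 3560 bases, and 1 for Tbx21, with 2488 bases. Gm33460, a noncoding gene on the opposite strand, overlaps the end of Eomes, and whether the counting used strand is not given. It held 8.04 to 18.2 estimated reads per library against 4757 to 9981 for Eomes, so reads listed under it were few beside those of Eomes. Tbx21 held 16863 to 27681 estimated reads per library.

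The sequences just upstream of the start sites are shown because they set out how the promoters of the pair differ. Both come from RefSeq's GRCm38.p6 table, where both genes had a window, and are the 250 bases before the start, written 5′ to 3′ on the gene's strand. Capitals mark matches on either strand to the motifs searched, whose letters follow the sequences.
Eomes (chr9:118477939-118478188, plus strand): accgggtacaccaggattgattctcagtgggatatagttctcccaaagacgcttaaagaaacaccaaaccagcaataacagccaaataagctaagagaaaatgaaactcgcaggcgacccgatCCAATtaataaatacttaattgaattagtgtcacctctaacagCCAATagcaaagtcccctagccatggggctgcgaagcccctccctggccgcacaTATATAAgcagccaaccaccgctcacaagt
Tbx21 (chr11:97115332-97115581, minus strand): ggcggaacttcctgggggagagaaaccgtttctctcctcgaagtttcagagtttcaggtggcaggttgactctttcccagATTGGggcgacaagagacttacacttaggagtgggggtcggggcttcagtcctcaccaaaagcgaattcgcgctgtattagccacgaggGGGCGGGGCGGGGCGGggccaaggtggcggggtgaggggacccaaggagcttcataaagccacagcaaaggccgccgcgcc
The Eomes window held a TATA box, searched as TATATAA, that began 30 bases before the start, a motif present in 3.04% of the 32851 windows in the table. It also held 2 CCAAT boxes, spelled by their name, a motif found in 33.9% of windows. The Tbx21 window held no match to that TATA box, 1 CCAAT box and 3 GC boxes, searched as GGGCGG, that overlap by their end bases, a motif found in 32.7% of windows. Neither window held the T-box half-site AGGTGTGA, present in 1.12% of windows. The STAT site TTCNNNGAA, present in 7.02% of windows, was absent from both as well. The G and C share was 46.4% for Eomes and 60.8% for Tbx21, against a median of 52.4% over all windows. A match is a description of the letters and not a shown binding site.

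The libraries held 22152167 to 30161214 estimated reads. Metformin 3 stood apart in its relation to gene length. Each gene's deviation from its mean log CPM over all libraries was used, so the values are relative to the other libraries. Across genes, the Spearman correlation of this deviation with gene length was lowest in metformin 3 (-0.422, while the other 5 ran from -0.11 to 0.327). That library also held the most reads of hepatocyte markers (328 CPM summed over 8 genes, against 62.2 to 163 CPM) and of Kupffer cell and monocyte markers (640 CPM over 8 genes, against 235 to 394 CPM), a sum of which Lyz2 made up 82.1%. Metformin 3 also had the highest share of mitochondrial reads, 0.72% against 0.429% to 0.515%. CPM are counts relative to the library's total, scaled by edgeR's TMM factors. Genes common to NK cells and ILC1 were abundant: Ncr1 (the receptor NKp46) lay at 1314 to 1591 CPM and Klrb1c (NK1.1) at 1720 to 2268 CPM in every library, while the T cell gene Cd3e lay at 6.92 to 62.2 CPM. These genes do not tell NK cells from ILC1, and markers of both were present in every library.

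T-bet was the more abundant transcript of the pair in every library. On the TPM scale, which corrects for gene length, the PBS libraries 1, 2 and 3 held Tbx21 at 581 TPM, 625 TPM and 624 TPM, and the metformin libraries 1, 2 and 3 at 523 TPM, 569 TPM and 429 TPM. Eomes read 152 TPM, 175 TPM and 173 TPM in the PBS libraries and 101 TPM, 105 TPM and 90.9 TPM in the metformin libraries. All 3 metformin libraries were below all 3 PBS libraries for both genes. For Eomes the gap was wide, from 105 TPM to 152 TPM, and for Tbx21 it was narrow, from 569 TPM to 581 TPM.

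**Figure D1:**
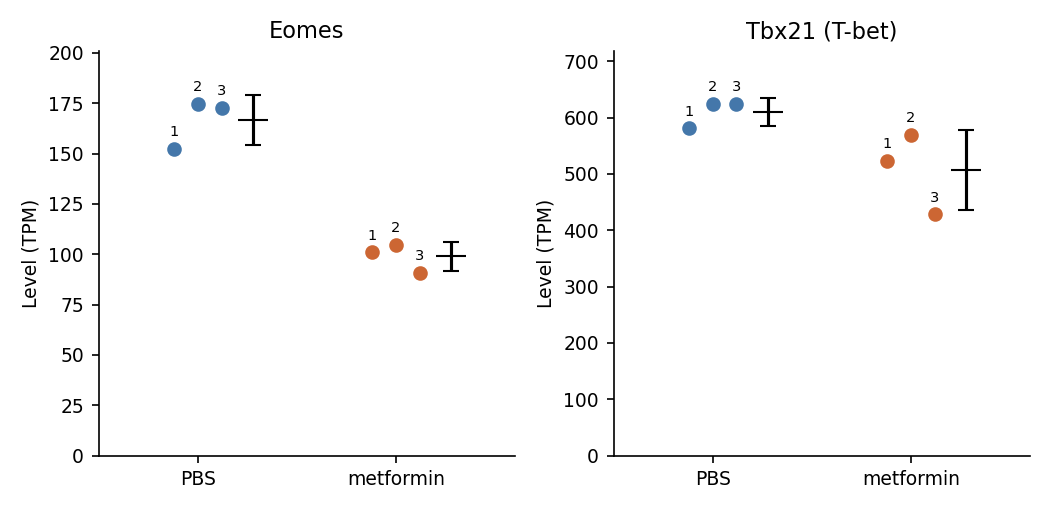
Level of Eomes (left) and Tbx21 (right) in TPM on linear axes that start at 0, for the PBS (blue) and metformin (orange) libraries. Points are libraries, numbered by replicate, and the black bars are the mean and SD (n = 3). Eomes in the metformin libraries reads 90.9 to 105 TPM, below 152 to 175 TPM with PBS, while Tbx21 in metformin 1 and 2 sits just under the PBS libraries and metformin 3 lies lower, at 429 TPM.

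Among all genes of the table, Tbx21 ranked 248 and Eomes 1428 by mean TPM. Beside 20 other transcription factors of NK cells and ILC1, 22 in all, Tbx21 ranked 3 with PBS, at a mean of 610 TPM. It came after Id2, the inhibitor of E proteins that all innate lymphoid cells need (2288 TPM), and Irf8, an interferon regulatory factor (816 TPM). Its range of 581 to 625 TPM overlapped that of Klf2, a factor of lymphocyte traffic (565 to 613 TPM), so the order of these neighbours is not set beyond their spread. Eomes ranked 7 of 22 with PBS, at 167 TPM, within the spread of the next factor Bhlhe40 (156 to 167 TPM). With metformin Eomes was at 99.0 TPM and ranked 8, next to Cbfb, the partner of RUNX factors (88.0 to 108 TPM), while Bhlhe40 lay above its range, at 139 to 169 TPM.

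Eomes was lower after metformin. The PBS libraries read 312, 342 and 329 CPM in replicate order, and the metformin libraries 216, 212 and 208 CPM. The means were 327 ± 15.2 CPM and 212 ± 4.04 CPM (SD, n = 3 each), a log2 fold change of -0.63 (SE 0.087, edgeR). This is a decrease of 35.2%, with a 95% interval of 25.6% to 43.6% that is not adjusted for the number of genes. In CPM the metformin libraries were close to one another, with a coefficient of variation of 1.90%, which is smaller than that of all but 1.89% of the 7389 protein-coding genes with a mean of at least 20 CPM. This depended on the scale, as in TPM the coefficient was 7.26% with metformin and 7.48% with PBS. The unadjusted p ranked 5 among the genes tested, but it did not pass over all of them by edgeR's quasi-likelihood test (adjusted p = 0.168). That test called 0 genes (0.0%) at an adjusted p under 0.05 and 10.4% of genes at an unadjusted p under 0.05, 5.08% lower and 5.29% higher. DESeq2 called Eomes (adjusted p = 6.33e-08), in a test that called 2.51% of the genes to which it gave an adjusted p, and limma-voom did not (adjusted p = 0.187). With each library left out in turn the log2 fold change of Eomes stayed between -0.67 and -0.59.

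Tbx21 was lower by less than its error allowed to be called. In replicate order the PBS libraries read 896, 933 and 913 CPM, while those given metformin read 866, 882 and 739 CPM. The first 2 metformin libraries lay just under the PBS range and metformin 3 lay well under it. The means were 914 ± 18.5 CPM and 829 ± 78.4 CPM (SD, n = 3 each), which is -0.14 as a log2 fold change (SE 0.098, adjusted p = 0.637 by edgeR). The 95% interval ran from a decrease of 22.4% to an increase of 6.11%, so a moderate decrease and a small increase are both within it. Without metformin 3 the log2 fold change was -0.07 (SE 0.058), and on log2(TPM + 1) with all libraries it was -0.28 (limma adjusted p = 0.446). With the gene length offset and all libraries the log2 fold change of Tbx21 was -0.16 (SE 0.097, edgeR). The trend of metformin 3 with gene length, read at the length of Tbx21, was 0.067 in log2. The part of the length trend and of the liver cell markers of metformin 3 in its low Tbx21 value was not tested. Both genes belong to the 9.63% of genes tested whose CPM values were lower in every metformin library than in every PBS library.

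**Figure D2:**
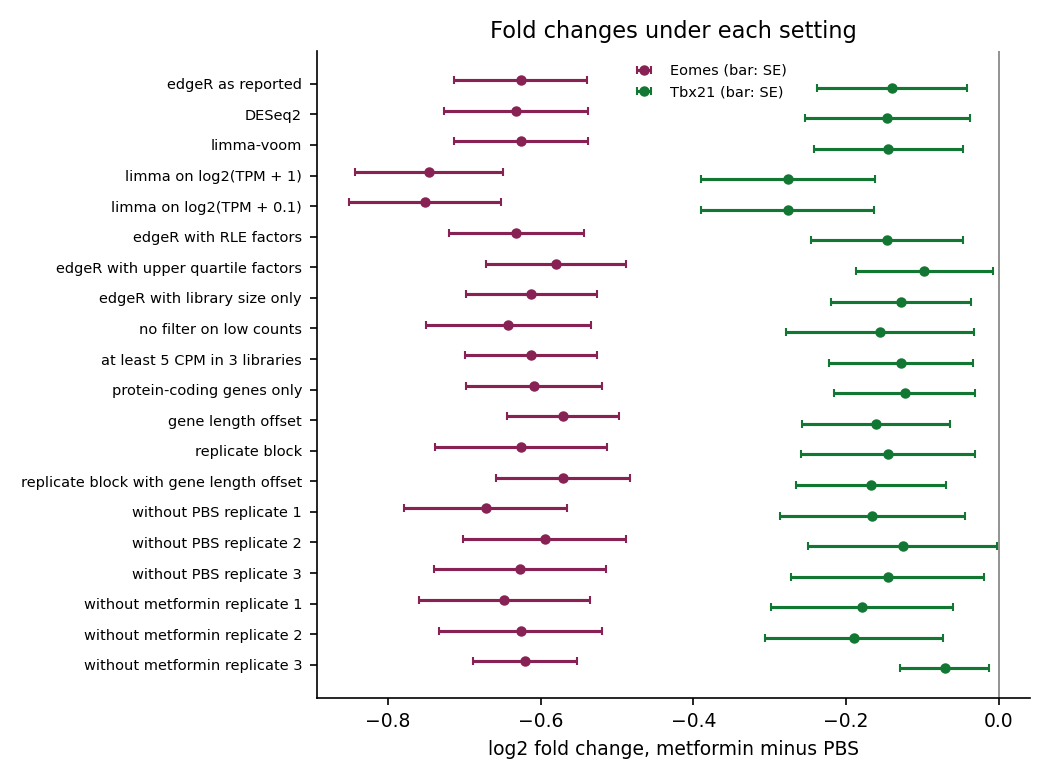
Log2 fold change of Eomes (purple) and Tbx21 (green), metformin minus PBS, under the reported edgeR test and 19 other settings; bars are standard errors. Eomes lies between -0.75 and -0.57 and Tbx21 between -0.28 and -0.07 in these settings, and their ranges do not meet.

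The balance between the factors lay further toward T-bet in every metformin library. As the quotient of their TPM, the PBS libraries held 3.82, 3.57 and 3.61 Tbx21 transcripts per Eomes transcript in replicate order, and the metformin libraries 5.17, 5.43 and 4.71. Every metformin library was above every PBS library, and metformin 3 was the nearest to them. The log2 ratio of Eomes to Tbx21 was -1.87 ± 0.051 with PBS and -2.35 ± 0.10 with metformin (SD, n = 3 each). The difference was -0.48 (two-sided exact permutation p = 0.1, a floor set by having 3 libraries in each group; Benjamini-Hochberg adjusted p = 0.125 over 5 such tests). This is the test of whether the genes differ in their change, and scaling between libraries does not enter it. The ratio difference was -0.53 without metformin 3 and -0.40 with the gene length trend removed. As a share of the summed TPM of the pair, Eomes made up 21.4% ± 0.591 with PBS and 16.4% ± 0.994 with metformin (SD, n = 3 each). That sum was 777 ± 37.4 TPM with PBS and 606 ± 78.8 TPM with metformin, with metformin 3 lowest at 520 TPM.

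**Figure D3:**
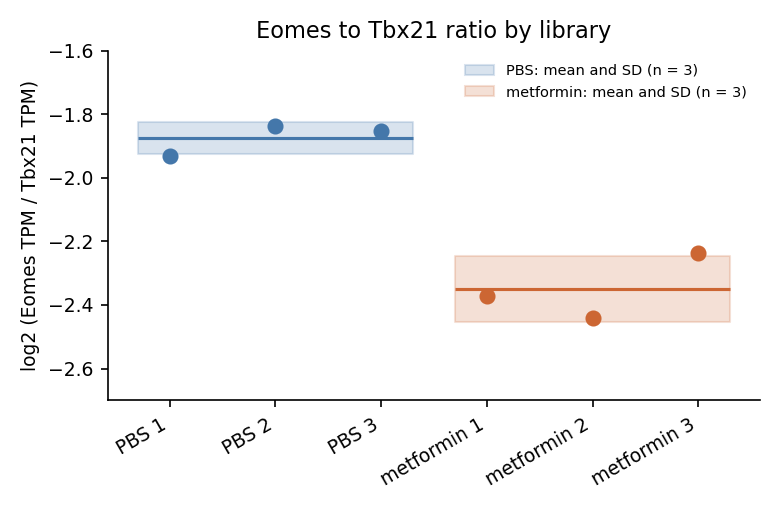
Log2 ratio of Eomes TPM to Tbx21 TPM in each library, PBS in blue and metformin in orange; lines are group means and bands 1 SD (n = 3). The PBS libraries lie between -1.93 and -1.84 and the metformin libraries between -2.44 and -2.24, without overlap; the vertical axis does not start at 0 because it is a log ratio.

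In a bulk sample, fewer cells that carry Eomes and less Eomes RNA in each such cell cannot be told apart. Markers of both liver populations differed between the same libraries. The sum of 14 conventional NK markers was 5863 to 6029 CPM with PBS and 3920 to 4701 CPM with metformin. Of these 14 genes, 11 were lower at an unadjusted p under 0.05, against 5.08% of all genes, and 0 were higher. Irf8 gave 17.8% of that sum and Itgam (the integrin CD11b) 11.8%. The sum of 9 liver ILC1 markers, which include Itga1 (the integrin CD49a), Cxcr6 and Tnfsf10, was 1328 to 1535 CPM with PBS and 2012 to 2362 CPM with metformin. In this list 8 of 9 genes were higher at an unadjusted p under 0.05, against 5.29% of all genes, and 0 were lower. Both lists were chosen with earlier results of these data known, so they are not independent evidence. A sum of 9 genes common to NK cells and ILC1 was 14906 to 15807 CPM with PBS and 16210 to 18392 CPM with metformin.

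Set against these sums, the direction was the same for Eomes and not for Tbx21. Relative to the pan NK and ILC1 sum, Eomes was lower by a log2 difference of -0.80 and Tbx21 by -0.32, with no overlap between groups for either (exact permutation p = 0.1 and adjusted p = 0.125 each). Without metformin 3 these were -0.74 and -0.19. Relative to the conventional NK sum, the Eomes values of the groups overlapped and differed by -0.19 (exact permutation p = 0.2, adjusted p = 0.2). They did not overlap without metformin 3 (-0.26) or without PBS 1 (-0.23). Relative to that same sum Tbx21 was higher with metformin, by 0.30, in all 3 libraries (exact permutation p = 0.1, adjusted p = 0.125). So the direction of Tbx21 turned with the denominator: lower per library and per pan NK transcript, higher per conventional NK transcript. Some of the conventional NK markers depend on the factors themselves, with 3 of the 14 in the list of T-bet targets and 5 in that of Eomes targets. The pan NK and ILC1 sum is not free of this either, as Il2rb, which is in both target lists, made up 28.5% of it.

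**Figure D4:**
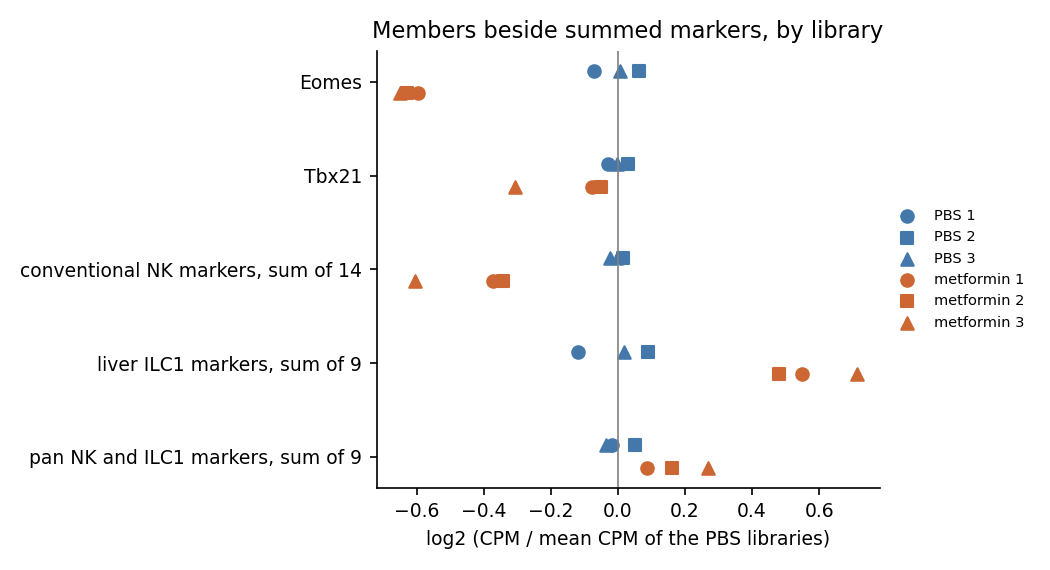
Log2 of CPM in each library over the mean CPM of the PBS libraries, for Eomes, Tbx21 and 3 marker sums; blue is PBS, orange is metformin, and the shape gives the replicate. Eomes and the conventional NK sum (3920 to 4701 CPM with metformin) lie to the left, the ILC1 sum (2012 to 2362 CPM) to the right, and Tbx21 stays near 0 except in metformin 3.

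T cells can also transcribe both factors, and their markers were few but not absent. In the sum of 9 T cell genes Cd28 made up the largest share, 27.6%, and varied little, at 41.0 to 51.0 CPM over all libraries. That sum was 81.7 to 169 CPM with PBS and 133 to 324 CPM with metformin, which overlapped, and none of the 9 was at 0 in every library. Of these genes 2 did not overlap between groups in CPM, Cd3e (means of 14.9 and 42.3 CPM) and Cd3d (16.5 and 36.4 CPM), both higher with metformin, beside 9.49% of all genes. In TPM the Cd3e groups overlapped. The sum of 5 B cell markers overlapped too, at 22.1 to 135 CPM and 62.8 to 194 CPM. Sums for ILC2 and ILC3 markers (6.57 to 13.6 CPM over all libraries, with Il22 at 0), liver endothelium (3.24 to 5.19 CPM) and basophils and mast cells (5.05 to 10.8 CPM) were low in both groups. Among 7 Kupffer cell and monocyte genes tested, 3 were higher and 1 lower at an unadjusted p under 0.05 (5.29% and 5.08% of all genes). The macrophage genes Adgre1 (F4/80; means of 5.23 and 12.4 CPM) and C1qa (0.913 and 5.50 CPM) were higher in all 3 metformin libraries without overlap, and Csf1r was lower in all 3. The part of T cells and macrophages in the Eomes and Tbx21 values was not tested.

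Of the 17 T-box genes of the mouse, Eomes and Tbx21 carried nearly all of the family's transcripts. The other gene above trace level was Mga, a MAX-binding protein with a T-box, at 12.9 to 24.8 TPM. The PBS and metformin means of Mga were 73.9 ± 10.8 CPM and 59.7 ± 7.26 CPM, with overlapping groups (log2 fold change -0.31, SE 0.14; edgeR adjusted p = 0.499). Tbx6 lay at 0.914 to 2.54 TPM and Tbx3 at 0 to 0.965 TPM, and in CPM both had overlapping groups. In TPM the groups of Tbx6 did not overlap, with 1.35 to 2.54 TPM for PBS and 0.914 to 1.32 TPM for metformin. The remaining 12 genes did not pass the filter: 7 had 0 reads in every library and 5 had at most 16 reads in any library. The median log2 fold change of the 5 family members tested was -0.31, which is the value of Mga, beside 0.01 over all genes tested. It lay between -0.42 (without PBS 1) and -0.20 (without PBS 3) with a library left out and at -0.19 with the gene length offset. The 5 include Eomes and Tbx21 themselves, and Tbx6 and Tbx3 held at most 72 and 32 reads in any library. The median therefore does not describe a shift of the family.

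Genes known upstream of the factors had fold changes on both sides of 0 among receptors and mostly below 0 among signalling proteins, and none passed over all genes. Of 12 cytokine receptor genes, 0 passed over all genes, 3 were higher and 2 lower at an unadjusted p under 0.05 (5.29% and 5.08% of all genes), and the median log2 fold change was -0.06 (-0.20 without metformin 2 and 0.06 without metformin 3). Il18rap, the accessory chain of the interleukin-18 receptor, had means of 682 ± 10.2 CPM (PBS) and 451 ± 78.8 CPM (metformin), SD over 3 libraries as in the values that follow. Its partner Il18r1 averaged 67.0 ± 4.80 CPM and 50.2 ± 2.27 CPM. On the higher side Il12rb1, a chain of the interleukin-12 receptor that induces T-bet, averaged 118 ± 12.4 CPM and 153 ± 15.8 CPM, and Il21r, the interleukin-21 receptor, 267 ± 26.4 CPM and 347 ± 11.5 CPM. In CPM the groups did not overlap for these 4 genes, beside 9.49% of all genes higher and 9.63% lower without overlap. Their edgeR adjusted p ran from 0.263 to 0.386. These 4 were named for having the smallest p of the list.

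Among 19 signalling genes, 17 had a log2 fold change below 0, with a median of -0.16 (-0.06 without metformin 3) beside 0.01 over all genes. Of these 19, 3 were lower and 0 higher at an unadjusted p under 0.05 (5.08% and 5.29% of all genes), and 0 passed over all genes. Jak1, a kinase of most cytokine receptors in NK cells, had PBS and metformin means of 1958 ± 53.6 CPM and 1571 ± 247 CPM, and its log2 fold change of -0.32 was -0.20 without metformin 3. Smad4, the shared mediator of TGF-beta signals, averaged 174 ± 10.5 CPM and 147 ± 6.51 CPM, and Akt1, a kinase that restrains FOXO factors, 331 ± 16.5 CPM and 275 ± 34.4 CPM (log2 fold change -0.27, or -0.18 without metformin 3). Foxo3, a FOXO factor, was the fourth gene by p, with overlapping groups (30.3 and 37.1 CPM). Stat4, which carries the interleukin-12 signal to Tbx21, had a log2 fold change of -0.14 (SE 0.089), and Foxo1, a repressor of Tbx21, one of -0.05 (SE 0.098).

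Other transcription factors of NK cells and ILC1 were split, with 9 of 20 above 0, 11 below and a median of -0.06 (-0.099 without PBS 1 and -0.038 without PBS 2). Of the 20, 0 passed over all genes, 1 was higher and 5 were lower at an unadjusted p under 0.05 (5.29% and 5.08% of all genes). Zfp683 (Hobit), a factor of resident lymphocytes that liver ILC1 need, had PBS and metformin means of 28.6 ± 3.02 CPM and 47.1 ± 5.12 CPM (log2 fold change 0.72, SE 0.13; edgeR adjusted p = 0.196). Klf2 averaged 544 ± 9.33 CPM and 425 ± 21.8 CPM, and Tcf7 (TCF-1), a factor of early NK cell development, 158 ± 8.67 CPM and 121 ± 8.96 CPM. Irf8 averaged 1049 ± 56.5 CPM and 799 ± 101 CPM. All 4 of these had groups that did not overlap, as did 19.1% of the genes tested (9.49% higher and 9.63% lower). Zfp683 is also among the liver ILC1 markers above. Klf2, Irf8 and the likewise lower Zeb2 are among the conventional NK markers, so these genes are not separate observations. Among genes named in the text, Il12rb1, Smad4, Gzmb, Klrb1c, Itga1, Tnfsf10, Cd3e and Klhl24 did not overlap in CPM but did in TPM.

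Targets of the factors are described by lists of 15 genes known to depend on T-bet and 13 known to depend on Eomes, 4 of which are in both. Of the Eomes list 8 were lower and 1 higher at an unadjusted p under 0.05 (5.08% and 5.29% of all genes), with a median log2 fold change of -0.43, and 0 passed over all genes. Its members include 6 Ly49 receptor genes (Klra), whose near-identical copies can split reads, so their values are uncertain. The median is the value of Klra3, and Klra1, Klra3, Klra4, Klra7 and Klra8 are among the 8 lower genes. Outside the Ly49 genes the log2 fold changes were -0.64 (Itgam), -0.64 (Itga2), -0.34 (Klrg1), -0.20 (Prf1), -0.07 (Spn), 0.12 (Il2rb) and 0.49 (Gzmb). Of the Eomes list, 5 genes are also conventional NK markers. Among the Ly49 genes Klra7 averaged 234 ± 41.1 CPM (PBS) and 167 ± 14.7 CPM (metformin), Klra3 80.8 ± 4.27 CPM and 60.0 ± 9.69 CPM, and Klra9 302 and 307 CPM. Klrg1, an inhibitory receptor of mature NK cells that is in both lists, averaged 225 ± 17.5 CPM and 178 ± 12.7 CPM. Itga2 (CD49b) averaged 185 and 119 CPM and Spn (CD43) 254 and 242 CPM, the last with overlapping groups.

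Of the T-bet list 5 were lower and 2 higher at an unadjusted p under 0.05 (5.08% and 5.29% of all genes), with a median log2 fold change of -0.20 (-0.11 without metformin 3), and 0 passed over all genes. Cxcr3, a chemokine receptor and direct T-bet target, averaged 324 ± 41.0 CPM (PBS) and 509 ± 63.7 CPM (metformin; log2 fold change 0.65, SE 0.13; edgeR adjusted p = 0.232). Gzmb (granzyme B), in both lists, averaged 2383 ± 366 CPM and 3345 ± 467 CPM. On the lower side, with Il18rap and Il18r1, stood Zeb2, a zinc finger factor that acts downstream of T-bet in NK maturation (206 and 135 CPM, with a log2 fold change of -0.60 that was -0.40 without metformin 3), and S1pr5, a sphingosine-1-phosphate receptor for exit from tissue (445 and 355 CPM). Ifng (interferon gamma) averaged 73.9 and 68.8 CPM with overlapping groups. The T-bet list therefore held genes on both sides beside a Tbx21 level whose difference was not called.

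**Figure D5:**
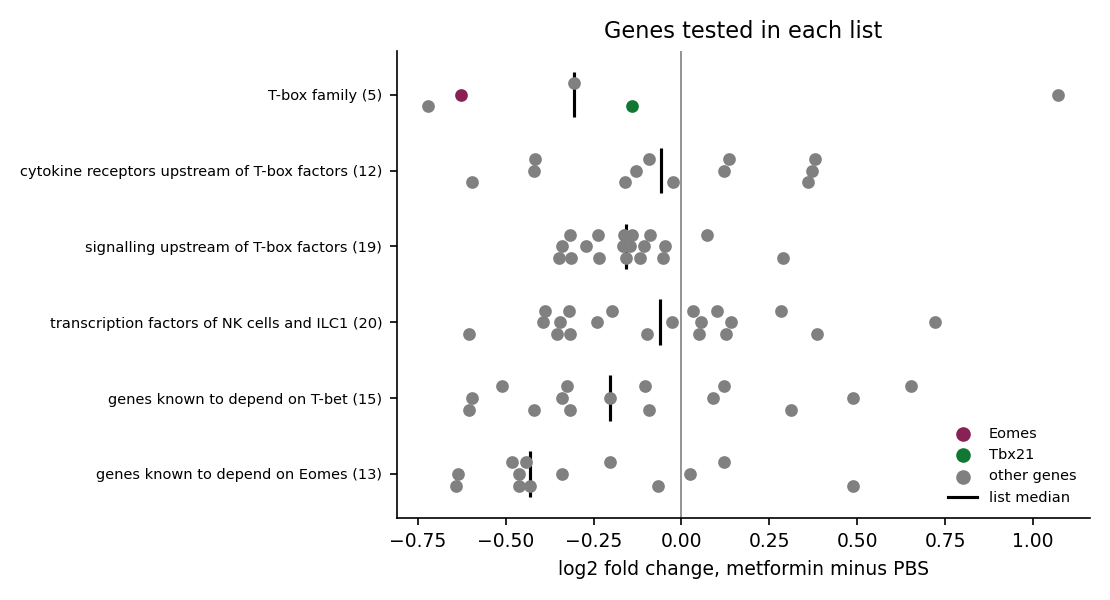
Log2 fold change, metformin minus PBS, of each gene tested in the 6 lists, with the number tested in brackets; Eomes is purple, Tbx21 green, other genes grey, and black bars are list medians. The median of the Eomes targets (-0.43) lies to the left of the others, and that of the cytokine receptors (-0.06) lies near 0. The Eomes target median is the value of Klra3, and 6 of those 13 genes are Ly49 genes with uncertain values.

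The genes with the pattern most like each factor were those with the smallest root mean square difference of log2 CPM, centred on its mean over the 6 libraries, among 7388 other protein-coding genes. For Eomes the 5 nearest included Mef2c and Klf3 (transcription factors), Sgk1 (a serum- and glucocorticoid-induced kinase) and Adap1, and the 5 lay at differences of 0.074 to 0.091. All 5 were lower in every metformin library than in every PBS library, as were 9.63% of all genes tested, with edgeR adjusted p from 0.168 to 0.251. They were chosen for a pattern like that of Eomes in these same libraries, so this follows from the choice. Klf3, for example, read 263, 268 and 278 CPM in the PBS libraries and 199.8, 187 and 189.5 CPM in the metformin libraries. For Tbx21 they were Zfp148, Ranbp9, Vps26b, Klhl24 and Mkln1, at differences of 0.012 to 0.022. All 5 were lowest in metformin 3, as Tbx21 was, which also follows from the choice. Their gene lengths of 3371 to 11395 bases exceeded the 2488 bases of Tbx21. Tbx21 ranked 1065 by likeness to Eomes and Eomes 5772 by likeness to Tbx21, so each had many genes nearer to it than the other.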

How the data were processed

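Messenger RNA of 6 libraries was measured by RNA sequencing, with RNeasy-extracted total RNA and SMART-seq mRNA libraries, per the labels' protocols. The authors deposited estimated counts per gene, which are not whole and not normalized, and TPM values, scaled by gene length and library total, per the file headers and values. The submitters' processing notes name DRAGEN, GRCm39 and mm10, with no role; counter, strand and filters are not given in the sources used here. Estimated counts were rounded and tested with edgeR 4.0.16 (glmQLFTest, TMM, filterByExpr, no covariate) in R 4.3.3; DESeq2 1.42.0 and limma 3.58.1 were alternatives. Adjusted p-values follow Benjamini and Hochberg over 15527 genes, with a threshold of 0.05. The script was tested on simulated data. No pair within a group looked like one library deposited again (chi-square over degrees of freedom from 15.0 to 65.2). The highest values were those of metformin 3 with metformin 1 (65.2) and with metformin 2 (61.0), and the next was 25.2.

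Of 96 program and 77 marker entries all were found, 1 through a RefSeq synonym. Named genes were the pair, T-box genes tested, up to 4 genes with the smallest p per list, and the 5 most like each factor; others were named after their values were seen. The members and lists were chosen with earlier results of these data known. Reads carry no molecular identifiers, so PCR copies count as reads. A gene that these rules name is not reported here.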

Additional observations from a re-analysis of the deposited data

How the results depend on the processing

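Eomes kept a negative log2 fold change in all 21 other settings (-0.80 to -0.19, adjusted p from 6.33e-08 to 0.576) and passed in 1, DESeq2 (-0.63); with each library left out it was -0.67 to -0.59. Tbx21 passed in none; its log2 fold change was -0.19 to -0.07 with a library left out, and relative to the conventional NK markers, a denominator chosen after seeing the data, it turned to 0.30. The ratio and the summed TPM kept their direction (-0.53 to -0.40 and -0.45 to -0.26). The number of genes called was 0 in edgeR, 299 in DESeq2, 1 without a filter and 1 with the gene length offset (Tmem273 both times), and 0 to 1 with a library left out (Tmem273 without metformin 3). With the replicate block it was 3 (Igkv8-30, Iglc1 and Iglv1, named after their values were seen). The block gave -0.63 for Eomes and -0.14 for Tbx21 (adjusted p = 0.238 and 0.682), and with the length offset -0.57 and -0.17; it changed no call of either. Same-numbered libraries correlated in their deviations at 0.171, 0.0757 and 0.172. The other pairs ran from -0.243 to 0.0763, the highest being PBS 2 with metformin 1. Whether same-numbered libraries share more than a number was not settled by these values, and the main test took them as unpaired. The median of the Eomes targets was -0.50 with the length offset and -0.45 to -0.33 with a library left out, and that of the cytokine receptors -0.20 to 0.062 with a library left out; its sign also turned with the length offset (0.02). Zfp148 and Klhl24 turned to 0.0071 and 0.024 with the length offset, and to 0.0068 and 0.024 when the block was added. DESeq2 called 8 of 20 other genes named from the lists, 5 of 5 most like Eomes and 0 of 5 most like Tbx21, beside 2.51% of all genes; these genes were chosen by their p or their pattern, so the counts are no support. The cause of these differences was not tested.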
